A study of Schizosaccharomyces pombe with 30 samples.

Results

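The genes *pho1*, *pho84* and *tgp1* of fission yeast encode a cell-surface acid phosphatase, an inorganic phosphate transporter and a glycerophosphodiester transporter, and each lies downstream of a lncRNA gene on the same strand. They were taken by symbol from the RefSeq annotation of the assembly ASM294v3, which makes them 3 of 5113 nuclear protein-coding genes. For each gene, Seb1 crosslink sites on the sense strand were collected from 3000 nt before the annotated transcription start site (TSS) to 250 nt after the annotated 3′ end. This gave 64 of the 15824 deposited sites, with 30 in the window of *pho1*, 24 in that of *pho84* and 13 in that of *tgp1*. The windows of *pho84* and *pho1* overlap and share 3 sites.

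Seb1 is an RNA-binding protein with a domain that contacts the C-terminal tail of RNA polymerase II, and it acts in 3′ end formation and termination. Its contacts with RNA were mapped by PAR-CLIP in 1 library of *h-* cells in which the endogenous *seb1* gene carries a TAP tag (*seb1::seb1-TAP::KanMX*). The cells grew at 30 °C in minimal medium with 10 mg of uracil per litre, 4% glucose and 100 μM 4-thiouracil, received a further 900 μM of this base analogue for 4 h, and were irradiated at 365 nm. The phosphate content of the medium is not given in the sources used here. Reverse transcription reads a crosslinked 4-thiouridine as C, and a T-to-C transition therefore marks the contacted uridine. With 1 library, 1 condition and no untagged control in the data used here, no test between conditions exists, and intervals cover counting error only.

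In phosphate-rich fission yeast, transcription of the upstream lncRNA represses the gene that follows it, and phosphate starvation turns the lncRNA off and the gene on through the activator Pho7. The lncRNAs are *prt* before *pho1*, *prt2* before *pho84* and *nc-tgp1* before *tgp1*. They are short-lived, and *prt* is known as a target of the RNA-elimination factor Mmi1, which reads the motif UNAAAC. Where transcription of the lncRNA ends is known to bear on whether the mRNA promoter is open to use, which makes these loci a usual test ground for termination factors.

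All 3 loci lie on chromosome II. On its plus strand, *prt2* (SPNCRNA.9001, 4442542 to 4445970), *pho84* (SPBC8E4.01C, 4444101 to 4446200), *prt* (named *nc-pho1* in the annotation, SPNCRNA.1712, 4446359 to 4448918) and *pho1* (SPBP4G3.02, 4447506 to 4449053) follow each other. On the minus strand, *nc-tgp1* (SPNCRNA.1698, 352335 to 354234) precedes *tgp1* (SPBC1271.09, 350310 to 352411). As annotated, *prt* and *prt2* run on to the end of the coding sequence of *pho1* and *pho84*, and *nc-tgp1* ends shortly after the *tgp1* start. Where they overlap, reads from an mRNA and from its lncRNA cannot be told apart. The parts of the lncRNAs before the mRNA start are 1147 nt long for *prt*, 1559 nt for *prt2* and 1823 nt for *nc-tgp1*.

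The stretches below show where crosslinks lay close together, written 5′ to 3′ on the sense strand of ASM294v3 with T for U. Capitals mark the crosslinked uridines. The stretches are the first 90 nt of *prt2* (chrII:4442542-4442631, plus strand, 10 sites), a stretch of *nc-tgp1* before the *tgp1* start (chrII:352500-352700, minus strand, 7 sites) and the first 120 nt after the annotated 3′ end of *pho1* (chrII:4449054-4449173, plus strand, 4 sites).
prt2: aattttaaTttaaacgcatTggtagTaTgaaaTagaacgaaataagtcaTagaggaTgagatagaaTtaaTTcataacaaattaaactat
nc-tgp1: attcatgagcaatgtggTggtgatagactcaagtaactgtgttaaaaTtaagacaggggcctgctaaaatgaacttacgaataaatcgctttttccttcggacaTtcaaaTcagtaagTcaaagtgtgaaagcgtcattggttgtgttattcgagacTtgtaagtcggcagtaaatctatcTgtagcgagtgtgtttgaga
after pho1: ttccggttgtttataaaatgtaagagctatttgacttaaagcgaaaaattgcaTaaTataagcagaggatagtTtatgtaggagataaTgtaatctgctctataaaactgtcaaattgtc

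At all 3 loci most Seb1 crosslink sites lay in the lncRNA upstream of the gene. The lncRNA parts before the mRNA starts held 57 sites, 23 in *prt*, 21 in *prt2* and 13 in *nc-tgp1*, and no site was listed in the rest of the 3000 nt upstream windows, which at *tgp1* includes the non-coding gene SPNCRNA.4682. The 3 mRNAs together held 3 sites, all in *pho1*. At least 1 sense site in the transcript was found for 61.6% of protein-coding genes, with a median of 1, and at least 3 sites, as at *pho1*, for 24.2%. Per length, this amounts to 12.6 sites per kb of upstream lncRNA (exact Poisson interval 9.53 to 16.3) and 0.522 per kb of mRNA (0.108 to 1.52). The ratio was 24.1 (exact interval 7.85 to 120). At *pho1* and *pho84*, most of the mRNA length is also annotated as *prt* or *prt2*. There the ratio largely sets the part of a lncRNA before the mRNA start against its later part. Transcript level was not matched between the parts. By lncRNA, there were 20.1 sites per kb in *prt* (12.7 to 30.1), 13.5 in *prt2* (8.34 to 20.6) and 7.13 in *nc-tgp1* (3.80 to 12.2). These intervals count neighbouring sites as separate events. With sites within 10 nt joined, 16 were left upstream of *pho1*, 11 of *pho84* and 10 of *tgp1*. Uridines made up 36.1% of the lncRNA parts and 35.5% of the mRNAs. Whether base content bears on the ratio was not tested.

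**Figure D1:**
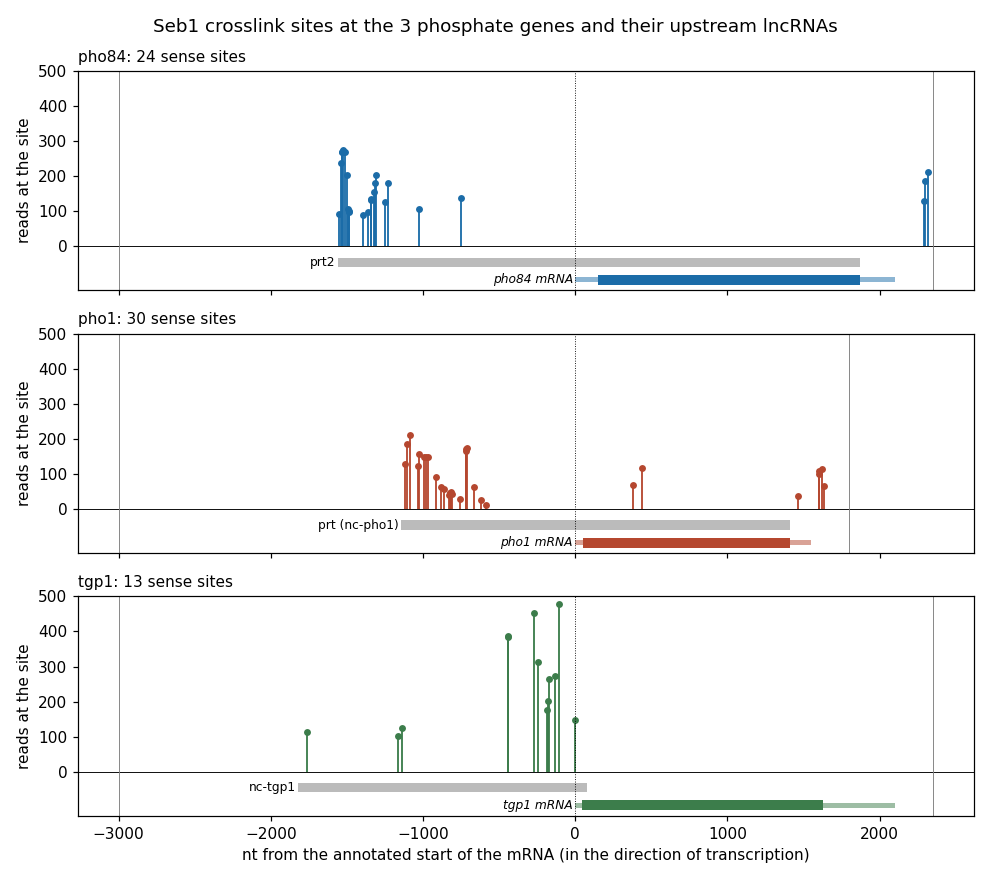
Reads covering each sense crosslink site against its distance in nt from the annotated mRNA start, for *pho84*, *pho1* and *tgp1*. Grey bars are the annotated lncRNAs, coloured bars the mRNAs (thick for coding sequence), grey lines the limits of the windows. Sites crowd into the lncRNAs before the dotted mRNA start, near the lncRNA start for *prt2* and *prt* and near the mRNA start for *nc-tgp1*. The 3 sites after *pho84* are also the first 3 sites of *prt*.

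Sites upstream of a gene are common, but seldom as many as here. Of the 5113 protein-coding genes, 61.0% had at least 1 sense site in the 3000 nt before the TSS, with a median of 1. At least as many as at *pho1* (23 sites) were found at 11 genes including *pho1* (0.215%), as at *pho84* (21 sites) at 16 genes (0.313%) and as at *tgp1* (13 sites) at 78 genes (1.53%). Some of these genes have their upstream sites in another protein-coding gene. With such sites left out, 3 genes had at least as many as *pho1*, 6 as *pho84* and 41 as *tgp1*. Among the 3166 genes with an annotated non-coding gene on the same strand upstream, the numbers were 4, 8 and 42. Both choices could not raise these numbers, since the members kept all their upstream sites. Transcript level, which bears on the number of sites, was not matched between genes.

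**Figure D2:**
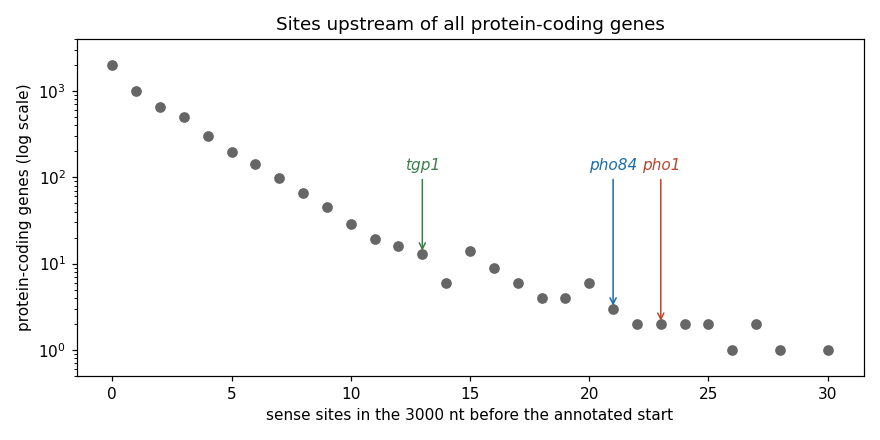
Number of protein-coding genes (log scale) against their number of sense crosslink sites in the 3000 nt before the annotated start. Each point is the number of genes with that count; arrows mark the counts of *tgp1* (13), *pho84* (21) and *pho1* (23). The upstream counts of all 3 genes lie far above the median of 1.

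The same holds among non-coding genes. Of the 7133 annotated lncRNA genes, 17.0% had at least 1 sense site. Over its whole annotated length *nc-pho1* (*prt*) had 25 sites, a number reached by 3 lncRNA genes, *prt2* had 21, reached by 4, and *nc-tgp1* had 13, reached by 12. Per length they rank lower, with 9.77 sites per kb for *nc-pho1*, 6.12 for *prt2* and 6.84 for *nc-tgp1*, values that 48, 109 and 98 lncRNA genes reached.

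The member sites are also deep for this list. They were covered by 12 to 477 reads with a median of 131, while the median of all deposited sites is 13 and 8.41% of them have 131 reads or more. Transitions numbered 2 to 45 per site, with a median of 7. Of the member sites, 63 of 64 reached the median read coverage of the list. The share of reads with the transition had a median of 5.72% at the member sites. Over all deposited sites it was 18.2%, but most of these are shallow. Among sites with at least 91 reads, the lower quartile of the members, the median share was 4.92% for the 49 member sites and 4.84% for the 1811 sites of the whole list.

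**Figure D3:**
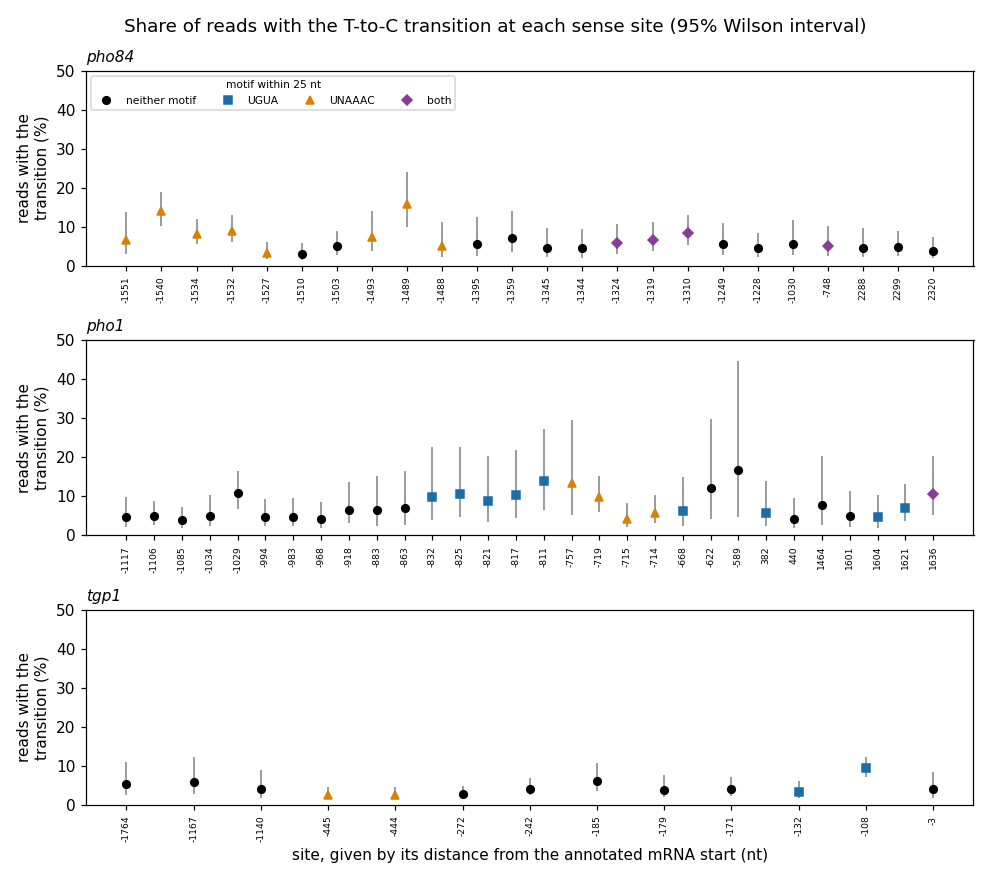
Share of reads with the T-to-C transition (%) at each sense site, in order of its distance in nt from the annotated mRNA start, with 95% Wilson intervals. Symbols give the motifs within 25 nt of the site. The widest intervals belong to the sites with fewest reads. Among the shares resting on over 100 reads, those at -1540 and -1489 of *pho84* (13.9% and 15.7%), at -1029 of *pho1* (10.8%) and at -108 of *tgp1* (9.43%) have the highest values of their loci, with intervals that overlap those of other sites.

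In *prt*, the sites before the mRNA all lay in the first part of the lncRNA. The 23 sites lay between 30 and 558 nt after its start, 9 of them in the first 250 nt, 12 in the next 250 nt and 2 in the third 250 nt, the last of them 589 nt before the *pho1* start. The fourth 250 nt, without a site, hold 81 uridines and the first 250 nt hold 100. The 2 deepest sites were among the first 3. The sites at 4446389, 4446400 and 4446421, between 30 and 62 nt after the start, had 6 of 130, 9 of 187 and 8 of 211 reads with the transition. Most transitions were found at 4446477, 118 nt after the start, with 17 of 158 reads (10.8%, Wilson interval 6.83 to 16.6%), and at 4446787, 428 nt after the start, with 16 of 165 (9.70%, 6.06 to 15.2%). Read coverage was 25 and 12 at the last 2 sites, 525 and 558 nt after the start.

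Counted from the annotated 3′ end of *pho84*, the first 3 sites of *prt* lie at 189, 200 and 221 nt. Whether these reads come from the 5′ end of *prt* or from *pho84* transcripts that extend past their 3′ end cannot be told apart in this list. They are the only sites in the 250 nt after *pho84*, a region where 25.8% of all protein-coding genes had at least 1 site.

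In *prt2*, crosslinks were packed even closer to the start. Of its 21 sites, 17 lay in the first 250 nt and 10 of these within the first 100 nt, between 8 and 71 nt after the start. The site at 4442561, 19 nt after the start, had 33 transitions in 237 reads (13.9%, Wilson interval 10.1 to 18.9%). The sites at 4442567 and 4442569 had 22 of 269 and 24 of 270. A separate group between 164 and 331 nt held 9 sites, with 5 to 17 transitions in 90 to 204 reads. The last 2 sites, 529 and 811 nt after the start, had 6 of 106 and 7 of 137 reads. The latter is 748 nt before the *pho84* TSS, and none was listed between there and the TSS, nor in the *pho84* mRNA.

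*nc-tgp1* had the opposite arrangement. Its start held 1 site, at 354175, 59 nt downstream, with 6 of 114 reads. Sites followed at 353578 and 353551, 656 and 683 nt after the start, with 6 of 102 and 5 of 125 reads. The other 10 sites lay between 1378 and 1820 nt after the start, the last of them 3 nt before the *tgp1* TSS, and were covered by 149 to 477 reads. The site with most reads and most transitions of all 64 was among them, at 352519, 108 nt before the TSS, with 45 transitions in 477 reads (9.43%, Wilson interval 7.13 to 12.4%). The last, at 352414, had 6 of 149 reads. None was listed in the *tgp1* mRNA or in the 250 nt after it. The mRNA holds 743 uridines and 8 copies of UGUA, and its transcript level was not assessed here. Among the 12 lncRNA genes of at least 1000 nt with at least 10 sites, the median site lay at 4.78% of the length in *prt2*, at 12.6% in *nc-pho1* and at 83.2% in *nc-tgp1*, with a median over these genes of 44.5%. These positions are not particular to the members, since the median site lay at 8.79% in SPNCRNA.1042, at 11.9% in SPNCRNA.1643, at 85.6% in SPNCRNA.5838 and at 91.9% in SPNCRNA.1189. *prt2* was the only 1 of the 12 with 10 sites in the first 100 nt, followed by SPNCRNA.1042 with 9.

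To set the crosslinks against transcript level, each site carries an occupancy with a maximum of 1. Total RNA of *h-* cells without the tag, grown with the same labelling, was depleted of ribosomal RNA and sequenced for this purpose. These cells received a lower UV dose than those for PAR-CLIP. The sources used here do not spell out the division. Transitions over occupancy gave whole numbers, which are taken here as the RNA-Seq coverage and called implied coverage. Where the occupancy is at its maximum, this gives only an upper limit, which equals the number of transitions. At the start of *prt2* the implied coverage was very low under a deep PAR-CLIP signal. It was 8 at 8 nt after the start, where 91 PAR-CLIP reads lay, and at the next 9 sites, with 99 to 275 PAR-CLIP reads, it was at most 5 to at most 33. From 164 nt after the start, where it was 127, it stayed between 127 and 361. The source of this step was not tested.

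In *prt* the implied coverage also rose after the first sites, but it did not stay high. The implied coverage was 9, 12 and 9 at the first 3 sites, 59 and 96 at 113 and 118 nt after the start, and 518 at 153 nt. PAR-CLIP reads at these sites ranged from 122 to 211 with no such step. Beyond 153 nt the implied coverage was uneven, for instance 102 at 229 nt, 335 at 264 nt and 98 at 284 nt. In *nc-tgp1*, it was at most 6 at 59 nt after the start, 253 and 274 at 656 and 683 nt, and between 41 and 139 at the 10 sites near the *tgp1* TSS. The occupancy thus reached its maximum at 9 sites of *prt2* and 1 of *nc-tgp1*, and came to 0.667, 0.750 and 0.889 at the first 3 sites of *prt*. Together with 1 site after *pho1*, 11 of the 64 member sites (17.2%) were at the maximum, against 5.74% of all deposited sites. These shares were not matched for depth or for transitions, whose median was 7 at the member sites and 2 over all deposited sites. The 9 sites of *prt2* also form 1 run, between 19 and 71 nt after its start.

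**Figure D4:**
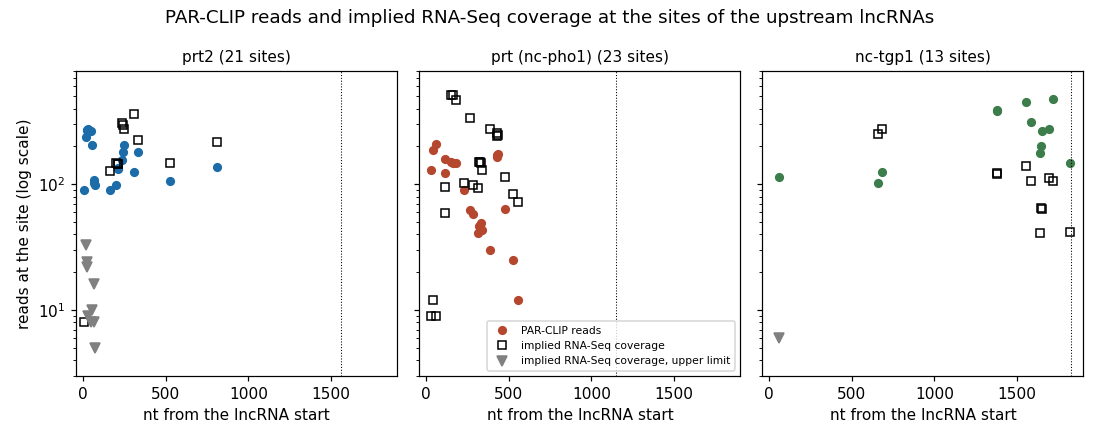
PAR-CLIP reads (filled circles) and implied RNA-Seq coverage (open squares; grey triangles where only an upper limit is known) on a log scale, against the distance in nt from the lncRNA start. Dotted lines mark the mRNA start. Within the first 100 nt of each lncRNA the implied values lie at 33 or below, while the PAR-CLIP reads lie at 91 or above.

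The *pho1* gene itself carried 7 sites that are not upstream. Sites at 4447888 and 4447946 lay in the coding sequence, 382 and 440 nt after the TSS, with 4 of 69 and 5 of 118 reads, and *prt* as annotated covers them too. The site at 4448970 lay in the 3′ UTR, 83 nt before the annotated 3′ end, with 3 of 39 reads. The other 4 lay 54, 57, 74 and 89 nt after the 3′ end, at 4449107, 4449110, 4449127 and 4449142, with 5 of 99, 5 of 109, 8 of 115 and 7 of 66 reads. Over this short distance the implied coverage decreased from 56 in the 3′ UTR to 18 and then to 8. At least 4 sites after the 3′ end were found for 175 protein-coding genes (3.42%).

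The motif content of these loci differed from that of Seb1 sites in general. On the crosslinked strand, a motif was counted where it lay within 25 nt of the site. UGUA, which holds the GUA known to be bound by Seb1, was present at 16 of the 64 member sites, or 25% (exact binomial interval 15 to 37.4%), and at 43.4% of the 15789 nuclear sites. At sites of at least 91 reads over the whole list its share was 56.8%. In the upstream lncRNA parts UGUA lay near 12 of 57 sites (21.1%, 11.4 to 33.9%), with 6 of 23 in *prt*, 4 of 21 in *prt2* and 2 of 13 in *nc-tgp1*. Of the 1637 uridines of these lncRNA parts, crosslinked or not, 13.6% have UGUA within 25 nt, compared with 21.3% of all nuclear uridines. Of the 14 UGUA copies in the lncRNA parts, 6 lay within 25 nt of a site, 2 in each lncRNA. The start of *prt2* printed above holds 10 sites and no UGUA. GUAG, which overlaps UGUA in UGUAG, was found near 9 of the 64 sites (14.1%, 6.64 to 25%) and near 25.2% of all nuclear sites.

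Where UGUA was present, it could lie right at the crosslink. The deepest site of *nc-tgp1* and the site with most transitions after *pho1* are shown with 25 nt on each side, the crosslinked base being base 26. Capitals mark UGUA and GUAG. At the *nc-tgp1* site (chrII:352494-352544, minus strand) the crosslinked base is the first U of a UGUA, and another UGUA begins 23 nt before it. At the *pho1* site (chrII:4449102-4449152, plus strand) UGUA begins 3 and 15 nt after the crosslinked base.
nc-tgp1: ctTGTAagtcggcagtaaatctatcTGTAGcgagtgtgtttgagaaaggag
after pho1: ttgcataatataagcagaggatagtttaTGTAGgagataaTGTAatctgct

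Downstream of *pho1*, the 250 nt window held 3 UGUA copies, or 12.0 per kb, and 3 of its 4 sites had UGUA within 25 nt. Over the 7 sites of the *pho1* mRNA and the window after it, the share was 57.1% (4 of 7, exact binomial interval 18.4 to 90.1%). The 3 sites with UGUA after *pho1* share a copy of it, and the interval counts them as separate. The window after *pho84* held no UGUA beside its 3 sites, and that after *tgp1* held 1 UGUA and no site.

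UNAAAC, where N is any base, was found near 19 of the 64 member sites, or 29.7% (exact binomial interval 18.9 to 42.4%), and near 8.90% of all nuclear sites. In the upstream lncRNA parts it lay near 18 of 57 sites (31.6%, 19.9 to 45.2%), and near 12.0% of their uridines whether crosslinked or not. By lncRNA part, this uridine share was 16.7% in *prt2*, 10.2% in *prt* and 9.32% in *nc-tgp1*. Over the nuclear genome, 8.43% of uridines have UNAAAC within 25 nt. *prt2* accounts for most of the member sites with UNAAAC, near 12 of its 21 sites and 8 of the 10 within its first 100 nt. It lay near 4 of 23 sites in *prt* (4.95 to 38.8%) and 2 of 13 in *nc-tgp1* (1.92 to 45.4%). These 2 intervals hold the uridine shares of their parts. Without the sites upstream of *pho84*, the share at the members was 16.3% (7 of 43, 6.81 to 30.7%). These 18 sites lay near 8 of the 17 UNAAAC copies of the lncRNA parts, so that neighbouring sites share a copy. With sites within 10 nt joined into clusters, UNAAAC was near 20.9% of 43 clusters (10.0 to 36.0%) and near 8.81% of all clusters, and UGUA near 20.9% and 40.8%. A match is a description of the sequence and does not show that Mmi1 was bound. The polyadenylation hexamer AAUAAA was near 3 of the 64 sites (4.69%) and 6.04% of all nuclear sites.

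On the opposite strand no site was listed in the windows of *pho1* and *pho84*, while 75.1% of protein-coding genes had at least 1 antisense site in such a window. The window of *tgp1* had 6, with 2 or 3 transitions each in 5 to 22 reads. Of these, 3 lay in the lncRNA gene *ncRNA.1343* upstream and 2 in the neighbouring SPBC1271.10C, which overlaps the 3′ end of *tgp1*.

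Other genes of phosphate metabolism and of lncRNA control had sites about as often as any gene. Of 24 listed genes, 23 were found in the annotation, and 16 of these (69.6%) had a sense site from 250 nt before the TSS to 250 nt after the 3′ end, against 70.4% of all protein-coding genes. Of 5 regulators of the phosphate response, 3 had a site, among them *pqr1*, which encodes a ubiquitin ligase acting on phosphate transporters, with 7 and *csk1*, which encodes a kinase, with 4. No site was listed at *pho7*, the gene of the activator, or at *aps1*. Of 5 matched phosphatase and transporter genes, 4 had a site. The polyphosphate synthesis genes *vtc2* and *vtc4* had 7 and 4, the transporter gene *pho842* had 3, and the thiamine-repressible acid phosphatase gene *pho4* had none. Of 13 genes for factors that act on the lncRNAs, 9 had a site. The gene *dis2*, encoding a phosphatase of the cleavage and polyadenylation machinery, had 8, *red1* had 4 and *mmi1* had 3, while *erh1*, *rrp6*, *rhn1* and *swd22* had none. The gene *seb1*, which carries the tag in these cells, had the most, 33 in the transcript and 5 after its 3′ end, with up to 1096 reads. Outside *seb1*, and *ssu72* with 75, no site of these genes was covered by more than 48 reads, whereas the median at the 3 phosphate-responsive loci was 131.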

How the data were processed

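Seb1 was mapped by PAR-CLIP in 1 library irradiated with 12 J per cm2. The submitters' processing notes name Bowtie 1.1.1 and the build ASM294v2 without roles. How the sites were called and duplicates handled is not given in the sources used here. Deposited were, per site, counts by the authors of transitions and of covering reads, a p-value of at most 0.00499, used here as a filter only, and the occupancy, a ratio. Transitions over occupancy was whole within 0.01 at all 9999 sites below the maximum with a value under 100. All 15789 nuclear sites fell on a T of their strand in the RefSeq assembly ASM294v3, which was used for coordinates, genes and sequence.

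Densities have exact Poisson, motif shares exact binomial and transition shares Wilson intervals of 95%, and the density ratio an exact conditional one. Python 3.11.15, numpy 2.4.6, pandas 2.3.3 and scipy 1.17.1 were used, and the counting was tested on simulated data. The members and gene lists were chosen with earlier results of these data known. Named are the 3 genes, their upstream non-coding genes and at most 10 list genes by sites. List genes without a site, *ssu72* and other lncRNA genes were named after their values were seen. Alternatives covered depth, p-value, clustering, window size, motif reach and gene background. The RNA-Seq and ChIP-Seq libraries were not analysed here. The sequence of *prt* is not reported here.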

Additional observations from a re-analysis of the deposited data

How the results depend on the processing

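Under the alternatives 39 values stayed within the limits set (1.5 times for counts, the 95% interval otherwise) and 19 moved further. A p-value of at most 0.001 left 12 sites at *pho1* and 5 at *tgp1*, raised the UNAAAC share to 43.8% and gave 26, 3 and 145 genes with as many upstream sites as *pho1*, *pho84* and *tgp1*. It left no site in the mRNAs, so that the density ratio had no value. Joining sites within 10 nt left 14 at *pho84* and gave 64 genes with as many upstream. For *pho84*, an upstream reach of 1000 nt left 4 sites, and a downstream reach of 500 nt gave 37 by including *prt*. Weighting by occupancy raised the density ratio to 188. UNAAAC was near 14.1% of sites with a reach of 10 nt. With the reach of 25 nt and without the sites upstream of *pho84*, an alternative chosen after seeing the data, it was near 16.3%. Leaving out upstream sites in other protein-coding genes gave 3, 6 and 41 genes with as many as *pho1*, *pho84* and *tgp1*. Genes with an upstream non-coding gene gave 4, 8 and 42. In both cases the numbers could not rise by construction. The UGUA share stayed between 17.2% and 34.4%. Motif shares over all nuclear sites were not computed for the reach of 10 nt or for the p-value limit. No paired analysis was possible because the deposited list holds 1 library. Depth limits the transition share of a single site, whose interval ran from 4.70 to 44.8% at 12 reads.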
